A study of Mus musculus with 6 samples.

Results

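The 87 genes described here encode the nuclear subunits of the oxidative phosphorylation complexes, with 8 assembly factors whose symbols share their prefixes. They were chosen by symbol alone from the platform's annotation (Ndufa, Ndufb, Ndufc, Ndufs, Ndufv, Sdha to Sdhd, Uqcr, Cox4 to Cox8 and Atp5), and were 87 of 12393 genes that had a probe set with a single annotated symbol. Complex I had 33 of these genes, complex II 4, complex III 8, complex IV 17 and complex V 17. Where a gene had several probe sets, the brightest over all arrays stood for it. Of the 87 genes, 85 lay above the filter on dim probe sets (mean log2 level 5.18) and were tested, while Cox4i2 and Cox7a1 lay under it. Another 2 genes, Cox6b2 and Cox8b, passed only because of their level on wild-type replicate 3.

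RNA was measured on 6 arrays in 2 groups of 3: CD4+CD25+ regulatory T cells (Treg), the T cells that restrain immune responses, from wild-type mice, and the same cells from MBD2–/– mice, which lack a protein that binds methylated DNA. All mice had the Balb/c background and all cells were separated by magnets. The labels as used here name neither ages nor the kind of deletion, and they do not say whether cells of several mice were pooled. The study's title concerns Foxp3 demethylation and Treg function, and no question about oxidative phosphorylation is stated there.

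Oxidative phosphorylation takes place in the inner mitochondrial membrane. Complex I takes electrons from NADH and complex II takes them from succinate, both hand them to ubiquinone, complex III passes them on to cytochrome c, and complex IV gives them to oxygen. Complexes I, III and IV pump protons, and complex V, the ATP synthase, uses the proton gradient to make ATP. Core subunits include those with the catalytic centres, and accessory subunits surround them. In Treg, mitochondrial respiration is known as a main source of energy.

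The deposited values were RMA log2 levels, and the number of arrays limits their precision. Wild-type replicate 3 stood apart, with correlations across probe sets of 0.749 to 0.767 with the other arrays, whereas all other pairs lay between 0.956 and 0.997. Its values were also narrower in range, with an SD over probe sets of 1.36 against 1.78 to 1.83 and quartiles of 5.001 and 6.64 where the other arrays had 4.56 to 4.62 and 7.20 to 7.31. Bright probe sets were low and dim ones high on it in general: with the probe sets in 4 equal classes by their mean on the other 5 arrays, it was the lowest array for 89.7% of the brightest class and the highest for 77.4% of the dimmest. No label says whether all 6 arrays were normalized together, and every 6-array difference depends on it. Differences are therefore given with all 6 arrays, with 5 arrays (without wild-type replicate 3) and with 4 arrays (also without knockout replicate 2, the next most distant array). Those with 4 arrays are given for the members as a whole, complex V, the markers of other cells, the related lists and some single genes. On its 2 probe sets Mbd2 was at 6.93 to 8.80 and 6.38 to 6.92 in the wild-type arrays, and at 5.71 to 6.14 and 4.57 to 4.68 in the knockout arrays.

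Markers of other cells moved with the groups. The following are mean log2 levels over the markers of a cell type. Neutrophil markers were at 5.59 and 6.53 in wild-type replicates 1 and 2, 5.79 in replicate 3 and 9.60 to 9.85 in the knockout arrays, with 10 of 10 higher and 6 past the threshold with 5 arrays (4 with 6 arrays). Macrophage and monocyte markers were at 5.25 to 5.604, 5.85 and 7.46 to 8.72 (6 of 6 higher, 2 past the threshold with 5 arrays and 1 with 6), and B cell markers at 7.03 to 8.04, 6.01 and 8.70 to 9.69 (4 of 4 higher, 0 past it). CD8 T and NK cell markers were at 6.38 to 6.46, 5.61 and 6.47 to 7.39, and markers of cycling cells at 7.94 to 8.14, 6.003 and 8.35 to 8.78, each with 5 of 5 higher with 5 arrays and 0 past the threshold. Treg and T cell markers were at 9.31 to 9.37, 8.08 and 8.04 to 8.89, with 9 of 9 lower and 0 past the threshold with 5 arrays, and 7 past it with 4. With 4 arrays 10 of 10 neutrophil, 6 of 6 macrophage and monocyte and 3 of 4 B cell markers were past it and higher. So were 5 of 5 markers of cycling cells and 0 of 5 CD8 T and NK cell markers, where 9.07% of all genes were past it and higher. Foxp3 was at 8.83 and 8.74 in wild-type replicates 1 and 2, 6.93 in replicate 3, and 7.98, 6.62 and 8.17 in the knockout arrays. Log2 levels have no zero, so no marker could be called absent. In bulk RNA, fewer cells of a type and less RNA per cell cannot be told apart. The part of these cells in the results below was not tested.

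Cores of 3 factors known to bind promoters of respiratory genes were searched on both strands of the RefSeq windows (GRCm38.p6) from 250 bases before to 50 after each start: CATGCGC for NRF1, CCGGAAG for GABP and AGATGGC for YY1. Each core was counted for itself, and a GABP and a YY1 core can share letters at their ends. Windows were found for 73 of the 87 genes, 78 windows in all. The NRF1 core stood in 17.9% of them, against 7.08% of windows of all genes tested and 3.91% of all windows in the table. The GABP core stood in 25.6% against 18.3% and 8.86%, and the YY1 core in 12.8% against 7.64% and 6.40%. At least 1 core was present in 46.2% of member windows and in 29.4% of the windows of genes tested, so most member windows held none. The median count of CpG pairs was 19.5, below the 21 among genes tested and above the 7 among all windows.

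The cores were spread unevenly over the complexes. All 10 members with a YY1 core belonged to complexes I (7) and V (3), among them Ndufs4, Ndufs7 and Atp5pb. Complex V had the GABP core in 6 of 15 genes, including Atp5e, Atp5h and Atp5k, and complex I in 4 of 30. Sdhb, Uqcr11, Ndufb6, Cox6a1, Atp5k and Atp5l held both an NRF1 and a GABP core. A core is a description of the letters and not a measured binding site.

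**Figure D1:**
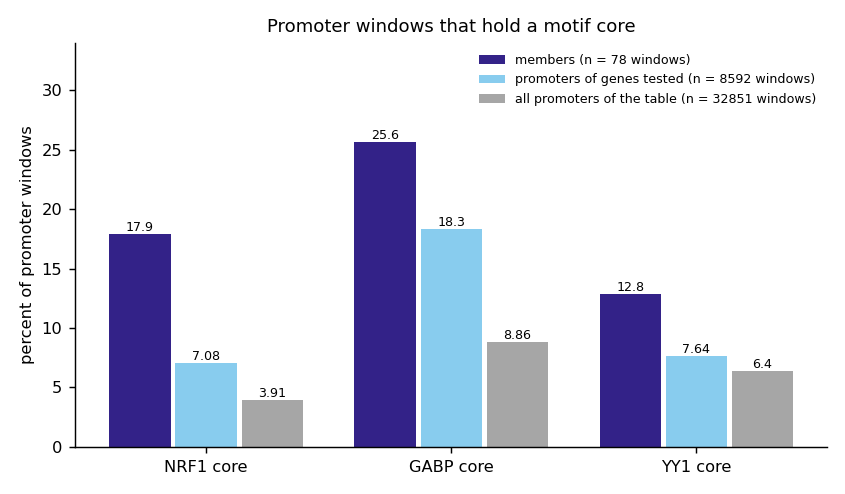
Percent of promoter windows (vertical axis) that hold the NRF1, GABP or YY1 core on either strand, for members (78 windows), all genes tested and all windows of the RefSeq table. The member bars stand at 17.9%, 25.6% and 12.8%, above both other bars for each core.

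The following 5 windows are shown because their genes recur in the results. The first 3 belong to genes that were higher in the knockout arrays than in wild-type replicates 1 and 2 on average, the last 2 to the lower genes of complex IV, and they were chosen after the values were seen. Each is written 5′ to 3′ on the gene's strand from RefSeq, with cores in capitals on whichever strand they read. The windows of Sdhb and Uqcr11 hold an NRF1 and a GABP core, that of Ndufb8 an NRF1 and a YY1 core, and those of Cox7a2l and Cox7c none of the 3. This choice does not stand for a relation between cores and direction. The windows of Cox7a2, Ndufs5, Ndufa4 and Atp5g1, also above 0 with 5 arrays, hold none of the cores, whereas that of Ndufaf5, below 0, holds 2 NRF1 cores and that of Ndufa9, below 0, a YY1 core.
Sdhb promoter, chr4:140961021-140961320, plus strand: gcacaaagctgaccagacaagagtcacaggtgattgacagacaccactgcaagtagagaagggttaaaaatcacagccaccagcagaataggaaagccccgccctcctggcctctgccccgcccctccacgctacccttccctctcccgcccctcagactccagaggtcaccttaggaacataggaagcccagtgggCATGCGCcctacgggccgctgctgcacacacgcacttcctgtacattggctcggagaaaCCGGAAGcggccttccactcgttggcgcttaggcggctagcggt
Uqcr11 promoter, chr10:80406772-80407071, minus strand: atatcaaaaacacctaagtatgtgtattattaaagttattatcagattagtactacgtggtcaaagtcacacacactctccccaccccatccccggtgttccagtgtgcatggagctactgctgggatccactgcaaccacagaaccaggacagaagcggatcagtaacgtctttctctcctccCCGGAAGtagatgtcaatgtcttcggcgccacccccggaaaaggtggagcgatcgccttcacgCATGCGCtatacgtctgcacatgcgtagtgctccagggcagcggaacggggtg
Ndufb8 promoter, chr19:44555393-44555692, minus strand: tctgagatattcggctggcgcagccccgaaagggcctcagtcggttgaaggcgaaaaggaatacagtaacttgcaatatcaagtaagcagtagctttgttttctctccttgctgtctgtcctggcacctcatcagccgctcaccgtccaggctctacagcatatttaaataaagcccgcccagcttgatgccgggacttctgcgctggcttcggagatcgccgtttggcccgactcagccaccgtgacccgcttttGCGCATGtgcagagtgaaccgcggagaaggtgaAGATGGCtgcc
Cox7a2l promoter, chr17:83514284-83514583, minus strand: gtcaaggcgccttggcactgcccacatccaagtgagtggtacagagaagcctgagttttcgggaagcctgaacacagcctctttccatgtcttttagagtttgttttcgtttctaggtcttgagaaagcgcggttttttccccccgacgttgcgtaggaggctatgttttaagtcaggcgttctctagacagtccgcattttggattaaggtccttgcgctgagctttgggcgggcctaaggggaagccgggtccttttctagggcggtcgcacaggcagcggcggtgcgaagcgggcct
Cox7c promoter, chr13:86046746-86047045, minus strand: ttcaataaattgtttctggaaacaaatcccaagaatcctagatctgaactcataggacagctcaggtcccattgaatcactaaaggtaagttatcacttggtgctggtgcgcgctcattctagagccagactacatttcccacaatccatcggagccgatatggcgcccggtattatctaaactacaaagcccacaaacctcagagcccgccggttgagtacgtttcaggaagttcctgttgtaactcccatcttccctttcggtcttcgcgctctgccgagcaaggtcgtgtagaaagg

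With all 6 arrays the subunits were higher in the knockout group on average, and none passed the test. Of 85 genes, 76 (89.4%) had a log2 difference (knockout minus wild type) above 0, against 64.3% of all 8190 genes tested, and the median difference was 0.45 against 0.16. None reached an adjusted p of 0.05 in limma, where 0.122% of all genes did, and the smallest adjusted p was 0.83. The count at an unadjusted p under 0.05 was also 0, against 3.91% of all genes higher and 0.574% lower. All 3 knockout arrays lay above all 3 wild-type arrays in 17 genes (20% of 85, against 10.8% of all genes), and below them in 0 (against 5.43%). The median standard error was 0.39, and no 95% interval lay within a 1.5-fold change, against 5.35% of all genes. Normalizing the quantiles again over the 6 arrays lowered the median of all genes from 0.16 to 0.05 and the share of members above 0 from 89.4% to 69.4% (all genes 54.4%). The members' own median fell from 0.45 to 0.10 under that setting, and their distance from the median of all genes from 0.29 to 0.05. The median of complex IV turned from 0.26 to −0.02, and those of the other complexes lay between 0.08 and 0.17.

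The level on wild-type replicate 3 set this picture. Relative to the mean of the other 5 arrays, the members' median on that array was −1.27, against −0.73 for all genes, and it was the lowest of the 6 arrays for 75 of 85 members (88.2%, against 64.7% of all genes). The members were mostly bright, with 75 of 85 in the brightest class of probe sets, where the median deviation was −1.36 and the share lowest on that array 89.7%, so that the members' values there lay close to those of other bright probe sets. Its deviation was −2.52 for Ndufb10, an accessory subunit of complex I, and −2.39 for Uqcrc2, a core protein of complex III. Ndufb10 was at 8.41, 8.34 and 5.86 in the wild-type arrays and at 8.38 in each of the knockout arrays. Its 6-array difference of 0.84, the highest among the members, therefore became 0.01 without that array.

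**Figure D2:**
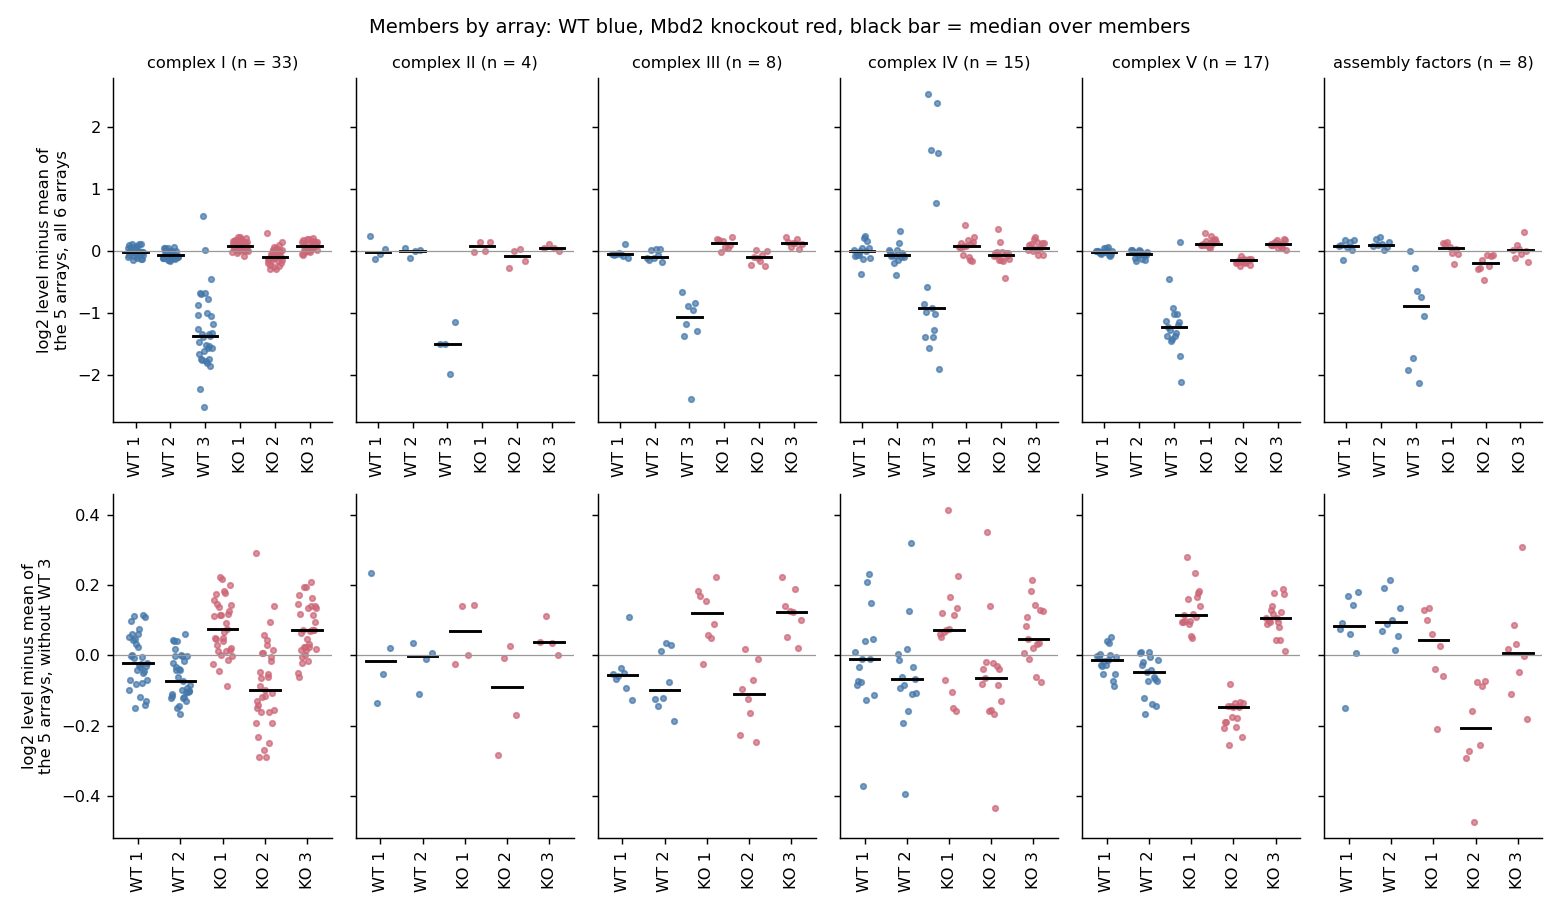
Log2 level of each tested member minus its mean over the 5 arrays without wild-type replicate 3 (vertical axis), by array and complex; the upper row shows all 6 arrays and the lower row the other 5 on a wider scale, with bars at the medians. Wild-type replicate 3 lies far below 0 for most members (median −1.27) but above 2 for Cox6a2 and Cox8b. The median of knockout replicate 2 lies below those of the other 2 knockout arrays in each complex and in the assembly factors.

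Without wild-type replicate 3 the differences shrank to a median of 0.05, while the median of all genes turned to −0.06. Of the 85 genes, 57 (67.1%) were above 0, against 40.1% of all genes. None passed an adjusted p of 0.05, where 1.58% of all genes did (129 genes, 0.818% higher and 0.757% lower). At an unadjusted p under 0.05, 1 member was higher and 3 were lower, against 7.69% and 15% of all genes. The knockout arrays lay above both wild-type arrays in 20 members (23.5%, against 16.8% of all genes) and below both in 6 (7.06%, against 32.8%). The 20 included all 17 from the comparison of 6 arrays, with Ndufb1, Cox6a2 and Cox6b2 added. The precision was higher, with a median standard error of 0.11, and the 95% interval of 80 of 85 members (94.1%) lay within a 1.5-fold change, against 64.2% of all genes. The 5 others were Cox6b2, Cox7c, Cox6a2, Sdhaf1 and Ndufaf5.

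The spread among the knockout arrays was larger than that difference. Knockout replicate 2 lay below replicate 1 in 77 of 85 members, with a median difference of −0.22, and below replicate 3 in 76. The median of knockout replicate 3 minus replicate 1 was −0.02, and that of wild-type replicate 2 minus replicate 1 was −0.03. Knockout replicate 2 was the lowest of the 5 arrays in 52 members (61.2%, against 47.8% of all genes), and knockout replicate 1 the highest in 43 (50.6%, against 14.0%). Knockout replicate 2 also had the lowest mean of the Treg and T cell markers (8.04) and the highest means of the macrophage (8.72), B cell (9.69) and CD8 T and NK cell markers (7.39). The part of those cells in its lower values was not tested.

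The fit with 4 arrays sets 2 knockout arrays against 2 wild-type arrays. It leaves out the array that was the lowest of the 5 in 52 members, which raises their differences. The median standard error fell from 0.11 with 5 arrays to 0.08, so the shares and calls below depend on that choice. With 4 arrays, 67 of 85 members (78.8%) were above 0, against 43.8% of all genes, and the median difference was 0.11 against −0.03. Both knockout arrays lay above both wild-type arrays in 56 members (65.9%), against 27.7% of all genes, and below in 6 (7.06%) against 38.4%. Of the members, 9 passed an adjusted p of 0.05 in limma (10.6%), whereas 20.1% of all genes did. The 8 that rose (against 9.07% of all genes) were Ndufab1, Ndufs8, Uqcr10, Uqcrq, Cox6b2, Cox7a2, Ndufa4 and Atp5mpl, by 0.28 to 0.70, and Cox7c alone fell (against 11%). At an unadjusted p under 0.05, 24 were higher and 3 lower, against 15.3% and 21.4% of all genes. The intervals of 84 members lay within a 1.5-fold change, against 83.4% of all genes. With 6 and 5 arrays, the count of 0 of 85 members past the threshold was close to the share of all genes (0.122% and 1.58%). With 4 arrays the total share of members past it was below that of all genes. The share above 0 was higher than that of all genes with 6, 5 and 4 arrays. With 4 arrays the lower total came from the genes that fell, since the share that rose was close to that of all genes.

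**Figure D3:**
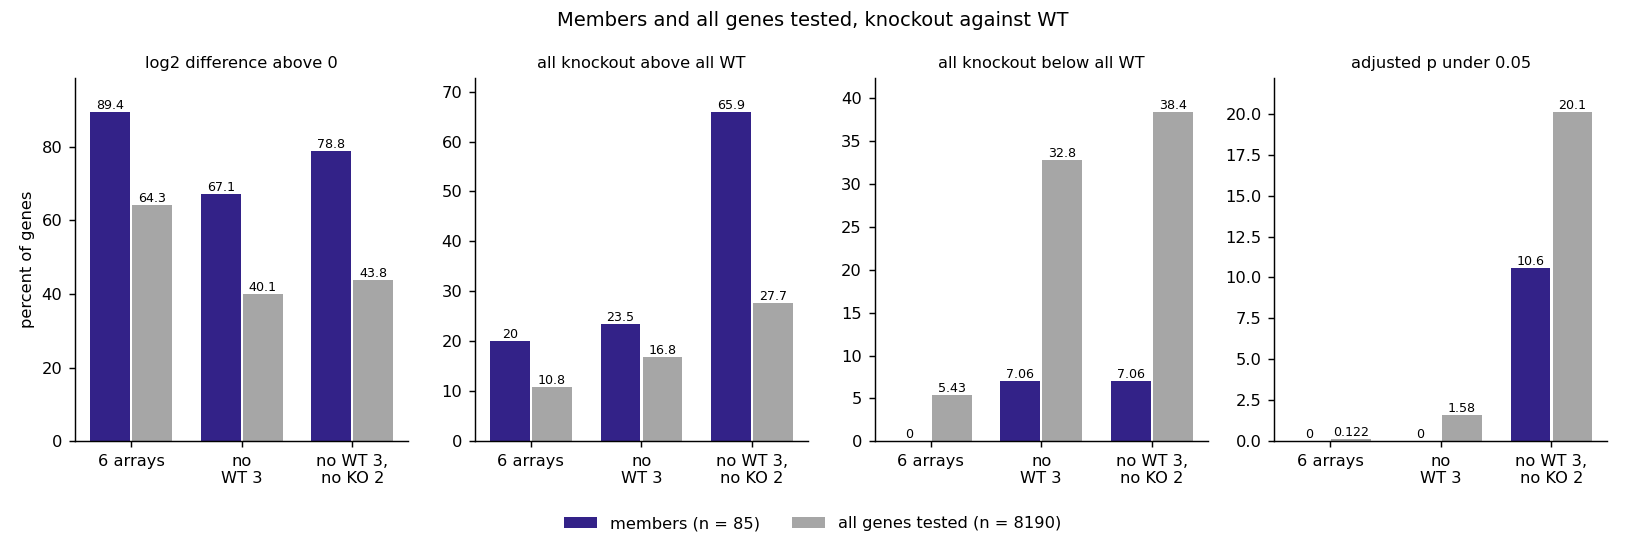
Percent of the 85 tested members and of all 8190 genes tested (vertical axis) with a difference above 0, with all knockout arrays above or below all wild-type arrays, and with an adjusted p under 0.05, for 6, 5 and 4 arrays. Members exceed all genes for differences above 0 (89.4%, 67.1% and 78.8%). For adjusted p the members stand at 0%, 0% and 10.6%, against 0.122%, 1.58% and 20.1% of all genes.

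In complex I, the NADH dehydrogenase, 32 of 33 subunits were above 0 with 6 arrays (median 0.53) and 23 with 5 (median 0.08). Of the 33, 11 had all knockout arrays above wild-type replicates 1 and 2, and 1 (Ndufa9) had all of them below, against 16.8% and 32.8% of all genes. All 33 intervals lay within a 1.5-fold change with 5 arrays. The ranking by p with 5 arrays began with Ndufb8, Ndufs5 and Ndufab1, none past the threshold.

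Ndufab1, the mitochondrial acyl carrier protein that is also a subunit of complex I, was at 9.54, 9.55 and 8.31 in wild-type replicates 1 to 3 and at 9.92, 9.58 and 9.89 in knockout replicates 1 to 3. Knockout replicate 2 was just above the 2 higher wild-type arrays, and the other 2 knockout arrays were further above them. Its difference was 0.66 (SE 0.39) with 6 arrays, 0.25 (SE 0.13, adjusted p 0.325) with 5 and 0.36 (SE 0.07, adjusted p 0.0195) with 4. A pseudogene, Ndufab1-ps, shares another probe set with it, so its signal may not be separable from that copy. The other tested probe set of Ndufab1, a dimmer one, gave 0.14 with 5 arrays, with overlap. With 4 arrays it gave 0.20 (adjusted p 0.235 in limma) and did not pass the threshold.

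Ndufb8, an accessory subunit of the membrane arm, was at 8.69, 8.69 and 6.996 in the wild-type arrays and at 8.99, 8.84 and 8.84 in the knockout arrays. All 3 knockout arrays were above all wild-type arrays, by 0.20 with 5 arrays (SE 0.10, adjusted p 0.291). Ndufs5, an accessory subunit, was at 8.06, 8.11 and 6.83 against 8.33, 8.20 and 8.32, with no overlap (0.20 with 5 arrays, adjusted p 0.292). Ndufs5 also has a pseudogene that shares one of its probe sets, which was left out.

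The 6 core subunits of complex I among the members did not move together. Ndufs1, the iron-sulfur subunit that receives electrons from the flavin site, was at 7.80, 7.74 and 5.94 in the wild-type arrays and at 7.59, 7.43 and 7.85 in the knockout arrays, so that the groups overlapped (−0.15 with 5 arrays, adjusted p 0.574). Ndufs3, Ndufv1, Ndufv2 and Ndufs8 were above 0 with 5 arrays by 0.10 to 0.19, and Ndufs7 was at −0.09. Ndufs8, an iron-sulfur subunit near the quinone site, passed the threshold only with 4 arrays (0.29, adjusted p 0.0423). Of its 6 probe sets, all tested, 1 dim one had the opposite sign with 6 arrays (−0.31), where it was highest on wild-type replicate 3 (7.65). Ndufb1 was the only subunit of complex I below 0 with 6 arrays (−0.09), and wild-type replicate 3 was its highest array at 6.53. Ndufa13, which also has a role in cell death, was at −0.12 with 5 arrays. The other 27 subunits lay between −0.09 and 0.19 with 5 arrays by their leading probe sets, with adjusted p of at least 0.381. Ndufa12 was among them at 0.15, with overlap. Slightly dimmer probe sets of Ndufa12 gave 0.39 and 0.33 with 5 arrays (adjusted p 0.137 and 0.156 in limma), with no overlap. Both passed the threshold with 4 arrays (adjusted p 0.0151 and 0.0159).

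In complex II, succinate dehydrogenase, the 4 subunits split. Sdhb, the iron-sulfur subunit, was at 9.70, 9.73 and 8.33 in the wild-type arrays and at 9.98, 9.83 and 9.95 in the knockout arrays, with no overlap. Its difference was 0.67 (SE 0.41) with 6 arrays, 0.20 (SE 0.10, adjusted p 0.275) with 5 and 0.25 (adjusted p 0.0592) with 4. Sdha, the flavoprotein that oxidizes succinate, was at 9.27, 9.07 and 7.53 against 9.01, 8.75 and 9.07. Its groups overlapped, and its difference turned from 0.32 with 6 arrays to −0.23 (SE 0.14, adjusted p 0.377) with 5. The membrane anchors were flat with 5 arrays. Sdhc was at 8.12, 8.16 and 6.18 against 8.17, 8.20 and 8.21, with a difference of 0.05. Sdhd was at 8.83, 8.82 and 7.65 against 8.95, 8.64 and 8.81, with a difference of −0.02 that was 0.14 in its dimmer probe set.

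In complex III, the cytochrome bc1 complex, 8 of 8 subunits were above 0 with 6 arrays (median 0.43) and 7 of 8 with 5 (median 0.14), and all 8 intervals lay within a 1.5-fold change with 5 arrays. Uqcrq, a small subunit, was at 9.73, 9.67 and 8.55 in the wild-type arrays and at 10.08, 9.84 and 9.96 in the knockout arrays. Every knockout array was above every wild-type array, by 0.64 (SE 0.36) with 6 arrays, 0.26 (SE 0.11, adjusted p 0.233) with 5 and 0.32 (adjusted p 0.0406) with 4. Its 2 other tested probe sets, both dim, gave −0.18 and −0.71 with 6 arrays and −0.01 and 0.07 with 5.

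Uqcr11, another small subunit, was at 8.90, 8.82 and 7.59 against 9.14, 8.87 and 9.11. Knockout replicate 2 lay between the 2 higher wild-type arrays, and the difference was 0.18 with 5 arrays (adjusted p 0.420). Uqcr10 passed only with 4 arrays (0.29, adjusted p 0.0426), with knockout replicate 2 at 9.29 beside 9.70 and 9.74 in the other knockout arrays. Uqcrh, the hinge protein beside cytochrome c1, was at 10.82, 10.74 and 9.88 against 10.80, 10.47 and 10.74, and was the only one of the 8 below 0 with 5 arrays (−0.11, adjusted p 0.636). The core proteins Uqcrc1 and Uqcrc2 and the Rieske protein Uqcrfs1 were at 0.13, 0.01 and 0.14 with 5 arrays, and of these Uqcrfs1 had no overlap.

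In complex IV, cytochrome c oxidase, Cox6b2 was the highest and Cox7c the lowest of all members with 5 and with 4 arrays. With 6 arrays 9 of 15 tested subunits were above 0 (median 0.26), and with 5 arrays 10 of 15 (median 0.08). Many of its subunits exist as a widespread form and a tissue-restricted partner, and on wild-type replicate 3 most of the forms went opposite ways. Brightness differed along with the form: the 6 tissue-restricted forms had means of 4.39 to 6.33 over the other 5 arrays and the widespread forms that were low there 10.8 to 12.4. Bright probe sets were low and dim ones high on that array in general, so form and brightness cannot be told apart here. Cox6a2 and Cox8b, forms known from heart and skeletal muscle, were 2.53 and 2.38 above the mean of the other arrays there, and the testis forms Cox6b2 and Cox8c were 1.63 and 1.58 above it. Cox4i2 and Cox7a1, which were too dim to test, were also highest on that array, at 5.98 and 5.25, against 4.84 to 4.89 and 4.33 to 4.47 on the others. Their widespread partners Cox4i1, Cox6a1, Cox6b1 and Cox7a2 were lowest there, at 10.53, 11.79, 9.24 and 9.79, while the widespread Cox8a, at 9.59 on the others, was highest there at 10.37. The tested probe sets of Cox8a had opposite signs with 6 arrays, so this order is that of its leading probe set. In the brightest class of probe sets, to which Cox8a belongs, 2.85% were highest on that array. In the next brightest class, which holds Cox6a2 and Cox8c, 21.9% were, and in the class below, which holds Cox8b, Cox6b2 and Cox4i2, 68.1% were.

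Cox7a2l, a relative of Cox7a2 that links complexes III and IV into supercomplexes, was at 10.25, 10.17 and 8.77 in the wild-type arrays and at 9.94, 9.88 and 9.98 in the knockout arrays. The 3 knockout arrays lay close together, all below wild-type replicates 1 and 2 and all above replicate 3. The difference was 0.21 (SE 0.43) with 6 arrays, −0.28 (SE 0.09, adjusted p 0.173) with 5 and −0.25 (SE 0.08, adjusted p 0.0679) with 4. All 3 of its probe sets showed the same order with 5 arrays, at −0.28, −0.32 and −0.35, and the 2 dimmer ones passed the threshold with 4 arrays.

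Cox7a2, the widespread form of the same subunit family, went the other way with 5 arrays. It was at 11.05, 11.02 and 9.79 in the wild-type arrays and at 11.35, 11.15 and 11.32 in the knockout arrays, with no overlap. Its difference was 0.65 (SE 0.38) with 6 arrays, 0.24 (SE 0.10, adjusted p 0.246) with 5 and 0.30 (SE 0.07, adjusted p 0.0352) with 4.

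Cox7c, a small accessory subunit, was at 6.63, 6.72 and 5.37 against 6.25, 5.96 and 6.43. All knockout arrays were below wild-type replicates 1 and 2 and above replicate 3. The difference was −0.03 (SE 0.41) with 6 arrays, −0.46 (SE 0.15, adjusted p 0.173) with 5 and −0.33 (SE 0.09, adjusted p 0.0483) with 4. The leading probe set of Cox7c had a mean of 6.40 over the 5 arrays and carries a suffix that marks probes shared with other transcripts (_s). Its only other probe set was too dim to test, so no second probe set bears on this value.

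Cox6b2, the testis form of Cox6b, had the smallest p of all members with 5 arrays. It was at 4.70, 4.67 and 6.70 in the wild-type arrays and at 5.48, 5.21 and 5.28 in the knockout arrays. The difference was −0.03 with 6 arrays, 0.64 (SE 0.11, adjusted p 0.0609) with 5 and 0.70 (SE 0.09, adjusted p 0.00495) with 4. Wild-type replicates 1 and 2 lay under the filter level of 5.18, and the gene passed the filter only through replicate 3. Its widespread partner Cox6b1 was at 10.80, 10.73 and 9.24 against 10.88, 10.65 and 10.99, with overlap.

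Ndufa4, once assigned to complex I and now counted as a subunit of complex IV, was at 10.48, 10.49 and 8.69 against 10.82, 10.47 and 10.72. Knockout replicate 2 was beside the higher wild-type arrays, and the difference passed the threshold with 4 arrays (0.28, adjusted p 0.0483) but was 0.18 (adjusted p 0.449) with 5. The widespread forms Cox4i1, Cox5a, Cox6a1 and Cox8a were at −0.01, 0.08, 0.08 and 0.10 with 5 arrays. Cox8b and Cox8c, which gave −0.87 and −0.51 with 6 arrays, were at −0.10 and 0.02 with 5. Cox5b was at 0.14 with 5 arrays, and 1 of its 5 tested probe sets, a dim one at 8.50 on wild-type replicate 3, gave −1.12 with 6 arrays and −0.09 with 5.

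**Figure D4:**
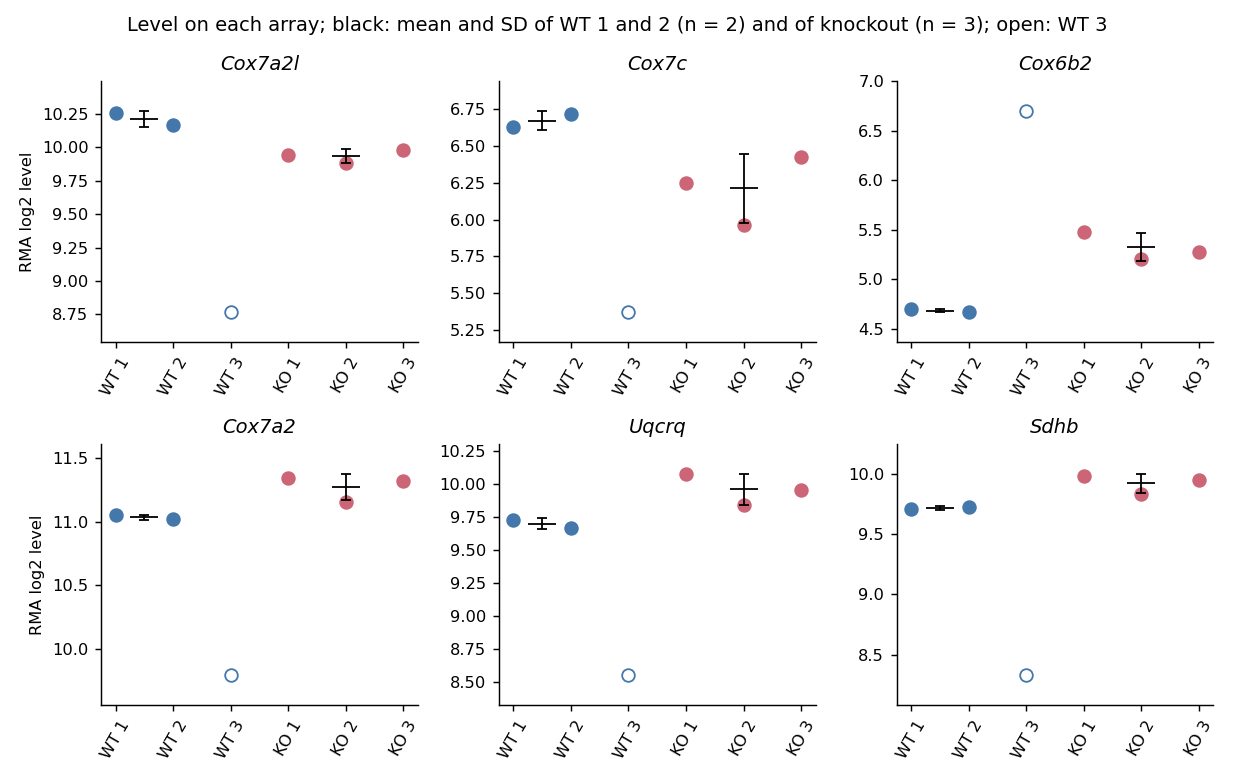
RMA log2 level (vertical axis) of 6 members on each array, with wild-type replicate 3 as an open circle and the mean and SD of wild-type replicates 1 and 2 (n = 2) and of the 3 knockout arrays in black. Cox7a2l and Cox7c lie lower in the knockout arrays than in wild-type replicates 1 and 2, the other 4 lie higher, and wild-type replicate 3 lies apart in each panel.

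Complex V, the ATP synthase, moved as a block from array to array. All 17 subunits were above 0 with 6 arrays (median 0.45), yet in 0 of 17 did the groups separate (all genes 10.8% higher and 5.43% lower). With 5 arrays 14 of 17 were above 0, the median was 0.04, the range was −0.04 to 0.19 and all 17 intervals lay within a 1.5-fold change. Knockout replicate 1 was above wild-type replicates 1 and 2 in 17 of 17 subunits and knockout replicate 3 in 16 and 17 of 17. Knockout replicate 2 was below wild-type replicate 1 in 17 of 17, below replicate 2 in 15, and the lowest of the 5 arrays in 15. Its median difference from knockout replicate 1 was −0.29 over these subunits. With 4 arrays, without it, all 17 were above 0 (median 0.12), the groups separated upward in 16 (all genes 27.7%), and 1 passed the threshold (5.88%, against 20.1% of all genes).

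Atp5b, the catalytic beta subunit, showed this order. It was at 10.60, 10.61 and 9.23 in the wild-type arrays and at 10.70, 10.41 and 10.69 in the knockout arrays, and its difference was 0.45 with 6 arrays, −0.00438 with 5 and 0.09 with 4. Atp5g1, one of 3 genes for the same c-ring protein, was at 8.60, 8.49 and 7.19 against 8.81, 8.57 and 8.79, with knockout replicate 2 between the higher wild-type arrays (0.18 with 5 arrays, adjusted p 0.402). The other c-ring genes, Atp5g2 and Atp5g3, were at 0.05 and 0.08 with 5 arrays. Atp5mpl, a small membrane subunit, was at 9.94, 9.88 and 10.17 against 10.20, 9.89 and 10.21. It was 1 of the members not lowest on wild-type replicate 3, and rose with 4 arrays (0.30, adjusted p 0.0366). Atp5h, a stalk subunit, was at −0.04 with 5 arrays (adjusted p 0.841), and Atp5md was at 0.48 with 6 arrays and 0.12 with 5. The remaining 12 subunits, Atp5g2 and Atp5g3 included, lay between −0.00247 and 0.13 with 5 arrays, and the smallest adjusted p among them in limma was 0.668.

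**Figure D5:**
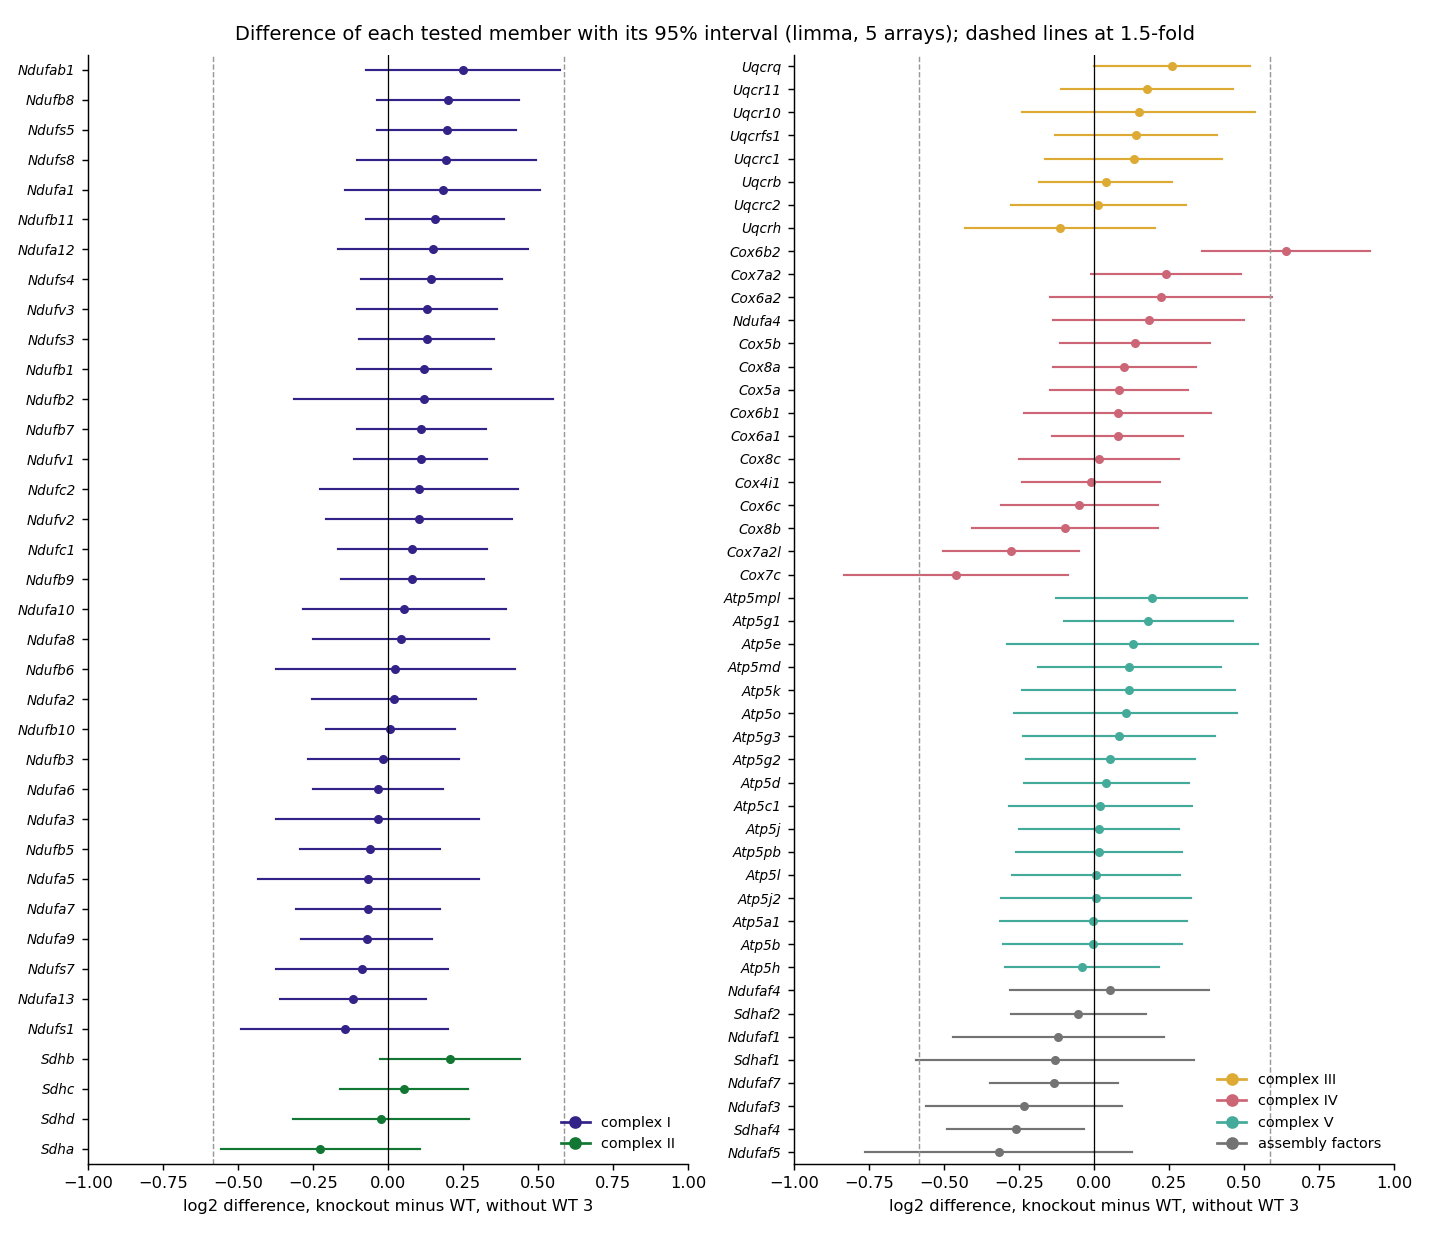
Log2 difference, knockout minus wild type, without wild-type replicate 3 (horizontal axis), for each of the 85 tested members with its 95% limma interval, coloured by complex; dashed lines mark a 1.5-fold change. Intervals exclude 0 for Cox6b2 on the right and for Cox7a2l, Cox7c and Sdhaf4 on the left, and 80 of 85 lie between the dashed lines.

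The 8 assembly factors among the members, which help to build complexes I and II and are not part of them, were mostly below 0 with 5 arrays. Of the 8, 1 was above 0 and the median was −0.13, against 56 of 77 subunits above 0 with a median of 0.08. Of all genes, 40.1% were above 0 with a median of −0.06. The knockout arrays lay below both wild-type arrays in 3 assembly factors (37.5%), near the 32.8% of all genes. All 8 had a tested probe set and none passed the threshold. Sdhaf4, which assists the insertion of the flavin-bearing Sdha, was at 7.60, 7.55 and 6.37 in the wild-type arrays and at 7.36, 7.35 and 7.24 in the knockout arrays. All knockout arrays lay below wild-type replicates 1 and 2 (−0.26 with 5 arrays, SE 0.09, adjusted p 0.191), and the difference was 0.14 with 6 arrays. Ndufaf5 was lower by the most (−0.32, SE 0.18, adjusted p 0.357), and was at 5.95 on knockout replicate 2 and at 6.49 and 6.46 on the other knockout arrays. Ndufaf7 also had no overlap (−0.13), and Ndufaf4 was the 1 above 0 (0.05). Knockout replicate 2 was the lowest of the 5 arrays in 7 of 8.

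Core and accessory subunits gave similar counts. Counted as core were the core subunits of complex I named above, Sdha to Sdhd, and Uqcrfs1, Uqcrc1 and Uqcrc2. In complex V they were Atp5a1, Atp5b, Atp5c1, Atp5d, Atp5e and the c-ring genes. All other subunits were counted as accessory, those of complex IV included. With 5 arrays 15 of 21 core subunits were above 0 with a median of 0.05, and 41 of 56 accessory subunits with a median of 0.08. With 6 arrays the counts were 21 of 21 and 49 of 56, with medians of 0.46 and 0.45. The 7 accessory subunits below 0 with 6 arrays were Ndufb1 and 6 subunits of complex IV.

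Probe sets of the same gene did not always give the same sign. Of 43 members with several tested probe sets, 8 had opposite signs with 6 arrays, 14 with 5 and 9 with 4. Atp5c1, Cox5b, Ndufa10, Ndufa7, Ndufb9 and Uqcrq did so in all 3. The others were Cox8a and Ndufs8 with 6 arrays, and Ndufa5, Ndufs7 and Uqcrb with 4. With 5 arrays they were Atp5a1, Atp5h, Atp5j2, Ndufb7, Ndufc2, Sdhd, Uqcrb and Uqcrc2. Of the 87 leading probe sets, 18 carry a suffix that marks probes shared with other transcripts (_s or _x). The genes lay on 19 chromosomes, with the most, 10, on chromosome 7, and 2 on X.

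Among related genes that are no members, lists written from general knowledge gave 0 past the limma threshold with 6 and with 5 arrays in each of 6 lists. With 4 arrays 8 of the 85 tested genes of these lists rose and 7 fell (17.6%, against 20.1% of all genes), with at least 1 call in each list. At an unadjusted p under 0.05 the 85 genes gave 0 with 6 arrays, 4 higher and 10 lower with 5 (all genes 7.69% and 15%), and 12 higher and 14 lower with 4 (all genes 15.3% and 21.4%). The 16 genes of the tricarboxylic acid cycle, which supplies NADH and succinate, were all above 0 with 6 arrays and 6 of 16 with 5 (median −0.04). Pdha1, of the pyruvate dehydrogenase complex, had the smallest p of that list (−0.34 with 5 arrays, adjusted p 0.217). The genes of ATP export and the outer membrane were above 0 in 6 of 7 with 5 arrays (median 0.13), led by Vdac1, the outer membrane channel (0.31, adjusted p 0.185). The electron carriers and their entry routes were above 0 in 7 of 15 (median −0.03), with Coq4, needed for ubiquinone synthesis, at 0.38 (adjusted p 0.190). The 26 other assembly and biogenesis factors were above 0 in 9 (median −0.06), with Acad9, an assembly factor of complex I, at −0.41 (adjusted p 0.148).

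Genes that maintain and transcribe mitochondrial DNA and genes that regulate respiration were above 0 with 5 arrays in 1 of 10 and 1 of 11, against 40.1% of all genes. With 4 arrays 4 of 10 and 4 of 11 were above 0, against 43.8% of all genes. Their medians were −0.33 and −0.20 with 5 arrays and −0.22 and −0.16 with 4, and with 6 arrays 7 of 10 and 8 of 11 were above 0. Tfb2m, a mitochondrial transcription factor, was at 7.94, 7.91 and 6.73 in the wild-type arrays and at 7.62, 7.42 and 7.47 in the knockout arrays (−0.43 with 5 arrays, adjusted p 0.1005). Gabpa, a subunit of the factor whose core was searched in the promoters, was at 8.001, 7.93 and 5.71 against 7.59, 7.42 and 7.57, with all knockout arrays below wild-type replicates 1 and 2 (−0.44 with 5 arrays, SE 0.10, adjusted p 0.0947). The same order held for Yy1 (−0.33, adjusted p 0.126), and Nrf1 had overlapping groups (−0.00291, adjusted p 0.990). With 4 arrays the first list had 0 higher and 2 lower past the threshold and the second 1 higher and 3 lower, and Gabpa and Yy1 passed the threshold at −0.38 and −0.32 (adjusted p 0.0179 and 0.0321).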

How the data were processed

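RNA of 6 samples was measured on single-colour arrays, and per the submitters' processing notes the authors made the deposited log2 values with RMA, which corrects background, normalizes and summarises probe sets. No source used here names its software or the arrays that entered a common normalization. Array medians were 5.56 to 5.78, and SDs 1.78 to 1.83 except 1.36 on wild-type replicate 3. Symbols came from the platform annotation: of 22626 probe sets that were not controls, 20380 had 1 symbol, 691 several and 1555 were not listed. All 87 member symbols matched RefSeq, and 8 probe sets shared by several genes were left out. The 13575 probe sets above the lowest 40% by mean went into a fit with group as its term (limma 3.58.1, R 4.3.3; lmFit and eBayes without trend), and p-values were adjusted over all of them by Benjamini-Hochberg (threshold 0.05). Genes were counted by their leading probe set. The members, lists and comparisons were chosen with earlier results of these data known. Named were members past the threshold, the 2 with the smallest p per complex and direction, complex II and tissue forms, members whose probe sets differ in sign, and the list gene with the smallest p; members past the threshold with 4 arrays and other examples were added after their values were seen. The samples are described as independent. The fit was tested on simulated data. Promoters came from RefSeq, and figures from matplotlib 3.10.9.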

Additional observations from a re-analysis of the deposited data

How the results depend on the processing

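The count of members past the threshold changed as follows. With 6 arrays it was 0 and became 6 with array quality weights, where wild-type replicate 3 had a weight of 0.0289 and 17.3% of all genes passed (7.06% of members). With 5 arrays it was 0 and became 1 (Cox6b2) at an adjusted p under 0.1 (6.21% of all genes) or with a trended robust variance (1.76%), and 20 (17 higher, 3 lower) with array quality weights, where knockout replicate 2 had a weight of 0.130; 29.6% of all genes passed under those weights. Leaving out each array in turn from the 5 gave 0 to 9, the 9 without knockout replicate 2 (20.1% of all genes), and from the 6 gave 0 each time. The weight estimation of 1 fit stopped before it converged. The median of the assembly factors with 6 arrays moved from 0.17 to 0.61 under a filter on the lowest 80%, which left 3 of them. The other medians and counts of the complexes kept their direction or stayed within the spread between arrays in the alternatives run, although quantile normalization again took the 6-array median of complex IV from 0.26 to −0.02 and that of all members from 0.45 to 0.10. With the replicate number as a block (replicate block), 0 members passed with 6 and 0 with 5 arrays, while 7 and 377 genes in all passed against 10 and 129 without it. The deviations of samples of the same number had correlations of 0.160, −0.120 and −0.137 for replicates 1 to 3. They were taken from group means that include wild-type replicate 3, so they cannot decide whether samples were paired. The number was not taken as a pairing because the samples are described as independent. Of 60 differences of single named members with 6 or 5 arrays, 22 changed sign under at least 1 alternative. No member at all had passed the threshold with 6 or 5 arrays, so none of these had. The 6-array differences of Cox6b2, Cox7c, Uqcrq and Atp5mpl, which passed it with 4 arrays, were among the 22. With 6 arrays, array quality weights turned Cox6a2 (0.13), Cox6b2 (0.72), Cox7a2l (−0.22), Cox8a (0.18), Cox8c (0.11), Ndufa13 (−0.031), Ndufb1 (0.14), Ndufs1 (−0.076) and Sdha (−0.064). Quantile normalization again turned Atp5h (−0.028), Atp5mpl (−0.21), Cox4i1 (−0.021), Cox7a2l (−0.17), Cox7c (0.14), Sdha (−0.00575) and Uqcrh (−0.15), median centring turned Cox6b2 (0.021) and Cox7c (0.029), and the mean of probe sets turned Uqcrq (−0.081). With 5 arrays, array quality weights turned Atp5b (0.083), Atp5h (0.021), Cox4i1 (0.038) and Sdhd (0.091), the mean of probe sets turned Atp5h (0.043) and Sdhd (0.061), and quantile normalization again turned Sdhd (0.0202). The ranges over arrays left out in turn were, with 6 arrays, Atp5b −0.0044 to 0.69, Atp5h −0.041 to 0.49, Cox4i1 −0.011 to 0.42, Cox6a2 −1.14 to 0.22, Cox6b2 −0.37 to 0.64, Cox7a2l −0.28 to 0.47, Cox7c −0.46 to 0.21, Cox8a −0.34 to 0.10, Cox8c −0.81 to 0.017, Ndufa13 −0.12 to 0.67, Ndufb1 −0.20 to 0.12, Ndufs1 −0.15 to 0.78, Sdha −0.23 to 0.64, Sdhd −0.023 to 0.57 and Uqcrh −0.11 to 0.36. With 5 arrays they were Atp5b −0.053 to 0.0898, Atp5h −0.077 to 0.024, Cox4i1 −0.044 to 0.026, Cox8c −0.047 to 0.075 and Sdhd −0.099 to 0.058. The cause of these changes was not tested beyond the arrays named. Only 2 wild-type arrays remain once replicate 3 is left out, so that intervals with 5 arrays rest on 3 degrees of freedom before moderation. Those with 4 arrays rest on 2.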
